A study of Mus musculus with 6 samples.

Results

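The B cell identity genes examined here were 9 genes that mature B lymphocytes use: Ighm, Cd79a, Cd79b, Cr2, Cd22, Ms4a1, Fcer2a, Blk and Pax5. They were chosen by symbol, and every probe set to which the array annotation gives just 1 symbol, that of a member, was read on every array. All 9 were measured, out of 18193 genes in all, and they had 23 of the 45037 probe sets fitted. Where a gene had several probe sets, its brightest by mean over the arrays stood for it. Another 4 probe sets carry Ighm together with other immunoglobulin symbols and were not used. The arrays profiled the whole pancreas at postnatal day 15 in mice of the NMRI strain, 3 arrays from mice with the genotype Jojo-Prox1 and Ngn3-cre (Prox1-OE) and 3 from mice with Ngn3-cre alone (control). Every mouse in both groups thus carried Ngn3-cre, whose promoter is active in the progenitors of islet endocrine cells and not in lymphocytes. The series was made to learn which programs change in the gland when beta cells carry excess Prox1, a homeobox factor. No label states that a group's samples are from different animals, so p-values measure the spread between these samples, which may be technical.

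B cells recognise antigen with the B cell receptor, a membrane immunoglobulin whose first form carries the mu heavy chain, paired with the signalling chains CD79A and CD79B. A co-receptor complex with CR2 strengthens the signal and CD22 restrains it, while the kinase BLK carries it into the cell and the transcription factor PAX5 holds the lineage's identity. The pancreas of a young mouse holds few B cells, but lymph nodes lie against the gland and can be taken with it, so these genes serve as a measure of lymphoid tissue in a sample. Whole tissue cannot tell fewer cells of a type from less RNA per cell.

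Values are RMA summaries on the log2 scale, and their median over all probe sets was 4.39, so a reading near or under that level is close to background. Genes that make up the pancreas were at their usual place: Cpa1, an acinar carboxypeptidase, read 14.6 to 14.7 and Ins2, an insulin gene, read 12.6 to 13.4. The arrays correlated with each other at 0.988 to 0.994 (Pearson, across probe sets), and the 3' minus 5' difference of control transcripts, a sign of RNA degradation, lay between 0.91 and 0.99 on all 6. Prox1 itself, at 3 probe sets, differed by -0.03 to 0.06, and since the transgene's transcript may lack the stretch these probe sets read, the labels go unchecked by them. Prox1-OE replicate 1 stood apart from the other arrays for leukocyte genes, so values are given array by array and differences also without that array.

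RefSeq's promoter table (GRCm38.p6) held 5 of the 9 genes (Cd22, Cd79a, Cr2, Fcer2a and Pax5), each with 250 bases before and 50 bases after a transcript start. Those of Cd22 and Cd79a are shown because both proteins act at the B cell receptor and the array values of these genes differed: Cd22 was high on Prox1-OE replicate 1 and Cd79a varied little. Capitals mark a match to CCCNNGGG, the core of the motif of the B lineage factor EBF1, searched on both strands. The Cd22 window lies at chr7:30878979-30879278 (minus strand) and the Cd79a window at chr7:24897247-24897546 (plus strand).
Cd22: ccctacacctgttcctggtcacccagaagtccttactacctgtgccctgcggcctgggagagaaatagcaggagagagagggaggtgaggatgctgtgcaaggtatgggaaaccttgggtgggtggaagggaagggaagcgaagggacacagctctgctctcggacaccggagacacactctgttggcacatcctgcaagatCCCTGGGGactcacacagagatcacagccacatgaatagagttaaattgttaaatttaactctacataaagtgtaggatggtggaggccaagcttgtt
Cd79a: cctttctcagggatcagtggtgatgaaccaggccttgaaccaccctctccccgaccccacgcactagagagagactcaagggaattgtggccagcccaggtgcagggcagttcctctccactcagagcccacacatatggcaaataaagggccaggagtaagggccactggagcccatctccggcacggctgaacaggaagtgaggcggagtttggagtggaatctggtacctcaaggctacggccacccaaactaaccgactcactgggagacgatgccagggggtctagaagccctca
The match in Cd22 covered bases 203 to 210 of the 300, and 13.7% of the 32851 promoters in the table hold this motif, so it is a common string. The other 6 windows of the 5 genes held no match to it. The octamer ATGCAAAT, a motif of immunoglobulin promoters (1.74% of all promoters), and GAGGAAGT, a motif of the leukocyte factor PU.1 (3.2%), matched in 0 of the 7 windows of the 5 genes on either strand. The motifs were chosen after the array values were seen, and the EBF1 motif was shortened to this core after a longer form had been searched. A match is a string of letters and not a bound site. A window without an exact match to this core may still hold an EBF1 site of another form, as may that of Cd79a.

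Across the group comparison, none of the 23 probe sets passed the threshold (limma, Benjamini-Hochberg adjusted p under 0.05 over all 45037 probe sets), where 0.0111% of all probe sets did. At an unadjusted p under 0.05, 4 of the 23 were higher in Prox1-OE and 0 lower, against 2.65% higher and 3.5% lower of all probe sets. Of the 9 genes at their brightest probe set, 6 had a positive difference and the median was 0.11, beside 46.2% positive and a median of -0.01 over all genes. Ighm and Ms4a1 were the 2 genes with a difference above 1 (0.247% of all genes) and the 2 in which every Prox1-OE array lay above every control array (5.05% of all genes). Counted by probe set, 4 of the 23 were higher with no overlap (4.6% of all probe sets) and 1 was lower (6.8%). The 9 genes fell into 4 that moved by more than 1 log2 unit between arrays (Ighm, Cd79b, Cd22 and Ms4a1) and 5 that did not (Cd79a, Cr2, Fcer2a, Blk and Pax5).

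**Figure D1:**
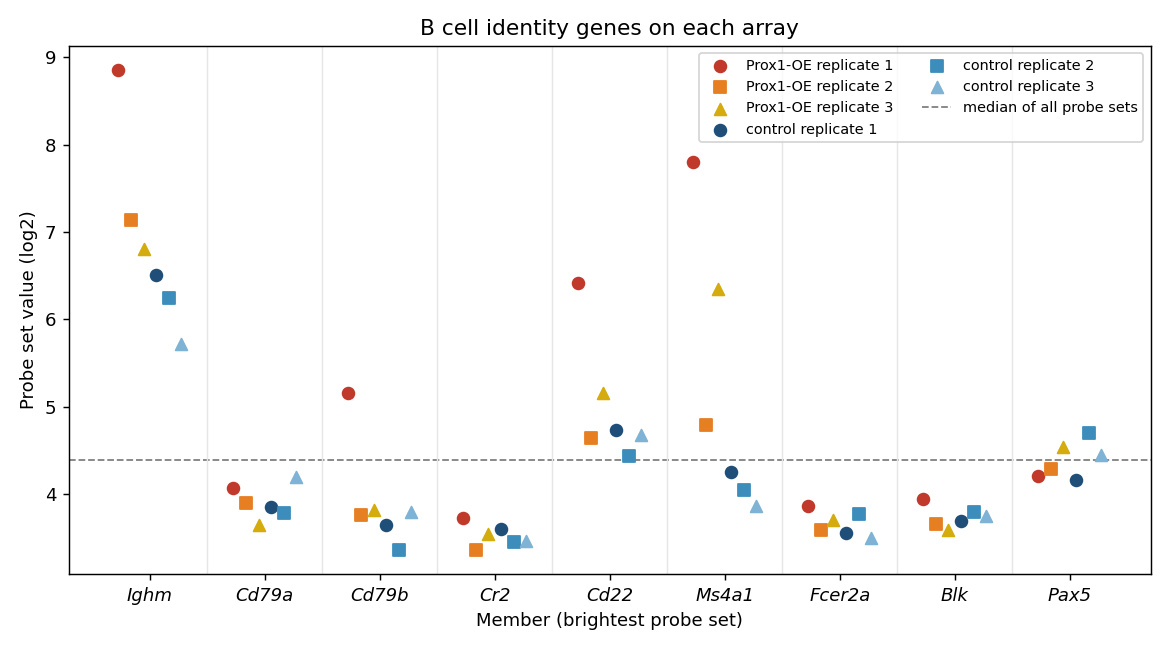
Value of the brightest probe set of each of the 9 genes (x axis) on each of the 6 arrays (y axis, log2), red to yellow points for Prox1-OE and blue points for control, with the median of all probe sets (4.39) as a dashed line. Ms4a1, Ighm, Cd22 and Cd79b are highest on Prox1-OE replicate 1, and Cd79a, Cr2, Fcer2a, Blk and Pax5 vary by at most 0.55 over the 6 arrays.

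Ighm encodes the constant part of the mu heavy chain, the body of membrane IgM and of secreted IgM. Its brightest probe set, 1427351_s_at, read 8.85, 7.13 and 6.81 on Prox1-OE replicates 1, 2 and 3 and 6.51, 6.24 and 5.72 on control replicates 1, 2 and 3. The groups did not overlap, although the gap between Prox1-OE replicate 3 and control replicate 1 was small beside the spread within each group. The means were 7.60 ± 1.10 (SD, n = 3) and 6.16 ± 0.40, a log2 difference of 1.44 ± 0.47 (SE, 95% interval 0.38 to 2.50, limma adjusted p = 0.777). A further probe set, 1427329_a_at, read 7.71, 5.59 and 5.54 in Prox1-OE and 4.93, 4.51 and 4.33 in control. It repeated the pattern of the brightest, with a log2 difference of 1.69 ± 0.51 (limma adjusted p = 0.777). Without Prox1-OE replicate 1 the difference at the brightest probe set was 0.82.

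The other 9 probe sets assigned to Ighm did not follow these. Their differences ran from -0.15 to 0.25, and their ranges over the 6 arrays were 0.12 to 0.56, whereas 1427351_s_at spanned 3.13. Among them 1425247_a_at was lower in all Prox1-OE arrays (5.20 to 5.28) than in all controls (5.32 to 5.53), a log2 difference of -0.15 ± 0.09 (limma adjusted p = 0.836). And 1426196_at was higher in all Prox1-OE arrays (3.26 to 3.44, against 2.96 to 3.25), by 0.25 ± 0.11 (limma adjusted p = 0.803), at percentile 16.8 of all probe sets by level. The gene's reading thus depends on which probe set is taken, and the cause of the disagreement was not tested.

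CD79A and CD79B carry the signal of the receptor as a pair, and B cells need both. Cd79b read 5.15, 3.76 and 3.81 on Prox1-OE replicates 1, 2 and 3 and 3.65, 3.36 and 3.79 on the controls. Prox1-OE replicate 1 was high, and the other Prox1-OE arrays lay close to the highest control. The log2 difference was 0.64 ± 0.33 (SE, 95% interval -0.11 to 1.40, limma adjusted p = 0.813), and 0.19 without Prox1-OE replicate 1. Cd79a read 4.07, 3.90 and 3.64 in Prox1-OE and 3.85, 3.79 and 4.19 in control, so its highest reading was on a control. The groups overlapped, with a log2 difference of -0.07 ± 0.14 (95% interval -0.40 to 0.26, limma adjusted p = 0.955). Each gene had 1 probe set, and by mean level both lay below the median of all probe sets.

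Ms4a1 encodes CD20, a membrane protein of B cells from the pre-B stage until they become plasma cells, and had the largest difference of the 9 genes. Its brightest probe set, 1423226_at, read 7.80, 4.79 and 6.35 on Prox1-OE replicates 1, 2 and 3 and 4.25, 4.04 and 3.86 on the controls. All 3 Prox1-OE arrays exceeded all controls, but they spanned 3.01 log2 units among themselves. The means were 6.31 ± 1.51 (SD, n = 3) and 4.05 ± 0.19, a log2 difference of 2.26 ± 0.60 (SE, 95% interval 0.90 to 3.63, 4.79-fold), with a limma adjusted p of 0.772. Leaving out Prox1-OE replicate 1 gave 1.52 and leaving out Prox1-OE replicate 2 gave 3.02, with adjusted p = 0.131 from limma, the smallest that any of the 23 probe sets reached in the alternatives run. By its range over the arrays Ms4a1 ranked at percentile 99.9. The other Ms4a1 probe set, 1450912_at, read 5.26, 2.92 and 2.93 on Prox1-OE replicates 1, 2 and 3 and 2.84 to 2.96 on the controls. So both probe sets were high on Prox1-OE replicate 1, and they disagreed about Prox1-OE replicates 2 and 3. On these arrays 1450912_at lay within the range of the controls. By its mean level it stood at percentile 19.8 of all probe sets, so the lack of overlap between the groups rests on 1423226_at alone.

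CD22 binds sialic acid and damps receptor signalling. Its brightest probe set, 1419768_at, read 6.42, 4.64 and 5.16 on Prox1-OE replicates 1, 2 and 3 and 4.74, 4.44 and 4.67 on the controls. Prox1-OE replicates 1 and 3 were above the controls and replicate 2 lay among them. The log2 difference was 0.79 ± 0.37 (SE, 95% interval -0.06 to 1.63, limma adjusted p = 0.812), and 0.28 without Prox1-OE replicate 1. The dim probe set 1419769_at (percentile 7.08) read 3.26 on Prox1-OE replicate 1 and 2.81 to 3.01 on the other 5 arrays.

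The remaining surface genes were near background on all arrays. Cr2, the complement receptor CD21 of mature and follicular B cells and of follicular dendritic cells, read 3.73, 3.36 and 3.54 in Prox1-OE and 3.60, 3.45 and 3.46 in control (log2 difference 0.04 ± 0.11, 95% interval -0.21 to 0.30). Fcer2a, the low affinity IgE receptor CD23, read 3.86, 3.59 and 3.70 in Prox1-OE and 3.55, 3.78 and 3.50 in control at its brightest probe set. Its difference there was 0.11 ± 0.11 (95% interval -0.15 to 0.37), and -0.14 ± 0.12 at 1451713_a_at. For both genes the groups overlapped and Prox1-OE replicate 1 was the highest array at the brightest probe set.

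The kinase and the transcription factor of the lineage varied little over the arrays. Blk, a Src family kinase, read 3.94, 3.66 and 3.59 in Prox1-OE and 3.69, 3.80 and 3.75 in control, with a log2 difference of -0.01 ± 0.11 (95% interval -0.27 to 0.24) whose sign changed with the scaling. Pax5 read 4.20, 4.28 and 4.53 in Prox1-OE and 4.17, 4.70 and 4.44 in control at 1454401_at, a log2 difference of -0.10 ± 0.15 (95% interval -0.44 to 0.24). Its other probe set, 1421765_at, stayed between 3.74 and 3.88 on all arrays. Limma's adjusted p ran from 0.900 to 0.992 over the brightest probe sets of Cr2, Fcer2a, Blk and Pax5. The upper ends of the intervals of these 4 genes lay between 0.24 and 0.37, so a rise of that size could not be told from none.

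**Figure D2:**
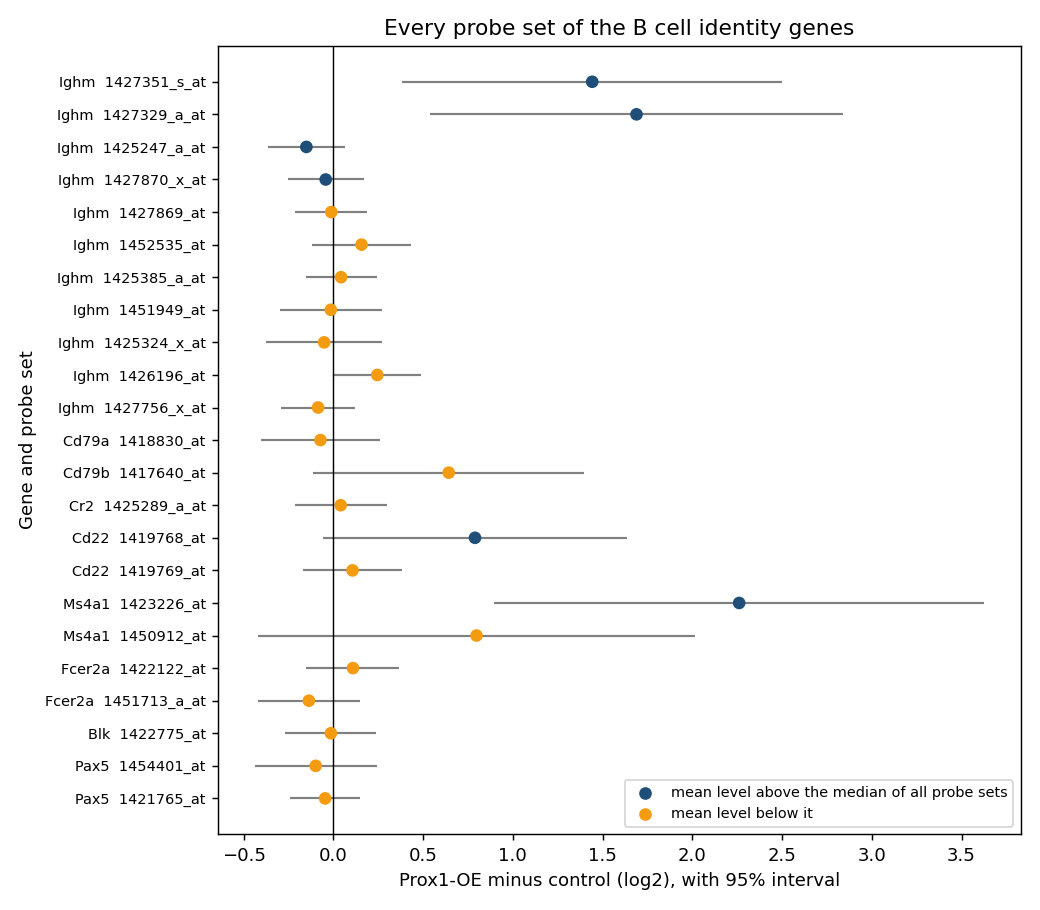
Difference between Prox1-OE and control (x axis, log2, point) with its 95% interval from limma (bar) for each of the 23 probe sets (y axis), coloured by whether the mean level lies above or below the median of all probe sets. The intervals of Ms4a1 1423226_at and Ighm 1427351_s_at and 1427329_a_at start at 0.90, 0.38 and 0.54. That of Ighm 1426196_at starts at 0.004, while the other 19 intervals include 0. The intervals assume the same spread in both groups and are not adjusted for the number of probe sets.

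Prox1-OE replicate 1 stood out through 4 of the 9 genes. The mean over the 9 of each value less its control mean was 1.15 on that array, 0.16 on Prox1-OE replicate 2 and 0.39 on Prox1-OE replicate 3, and -0.03 to 0.04 on the controls. With the mean of all probe sets of a gene in place of the brightest, the same means on Prox1-OE replicates 1, 2 and 3 were 0.74, 0.03 and 0.16. On Prox1-OE replicate 1, Ms4a1 stood 3.75 above its control mean, Ighm 2.70, Cd22 1.80 and Cd79b 1.56, while the other 5 genes lay between -0.23 and 0.26. Of the 9 genes 7 were highest on Prox1-OE replicate 1 (18.9% of all genes) and 0 on Prox1-OE replicate 2 (12.7%) or 3 (14.4%). Taking all 23 probe sets, 12 were highest on Prox1-OE replicate 1 (17.1% of all probe sets). On Prox1-OE replicate 1, 7 of the 9 genes exceeded all controls, where 25.4% of all genes did. On Prox1-OE replicate 2, 2 of the 9 exceeded all controls, where 20.9% of all genes did, so that array was near the background share. On Prox1-OE replicate 3 it was 4 of 9, where 23.9% of all genes did.

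The order of the other Prox1-OE arrays depended on the gene. Above the control mean, Ms4a1 read 0.74 on Prox1-OE replicate 2 and 2.30 on Prox1-OE replicate 3, and Cd22 read 0.03 and 0.54. Ighm went the other way, with 0.98 on Prox1-OE replicate 2 and 0.65 on Prox1-OE replicate 3 at the brightest probe set, and nearly equal values (0.996 and 0.95) at the next. So Prox1-OE replicate 2 held an Ighm reading above all controls with Cd22 at control level.

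Other genes of B cell receptor signalling and the B lineage, 23 of 26 listed measured, followed the same arrays. None passed the threshold in either direction. Of the 23, 20 had a positive difference (46.2% of all genes), the median was 0.24, and 18 were highest on Prox1-OE replicate 1. Bank1, a scaffold of receptor signalling, read 6.09, 3.89 and 4.37 in Prox1-OE and 3.46 to 3.85 in control (log2 difference 1.07 ± 0.47, SE). Ly86, a partner of CD180, a relative of the Toll-like receptors, that macrophages also express, differed by 1.14 ± 0.38, and Cd37, a tetraspanin of B cells, by 0.88 ± 0.35. Bcl11a, a transcription factor also found in neurons, was lower in all Prox1-OE arrays (-0.21 ± 0.09). Limma's adjusted p of these 4 genes ran from 0.777 to 0.809. Averaged over the list, Prox1-OE replicates 1, 2 and 3 stood 0.76, -0.03 and 0.25 from the control mean.

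Stages before and after the mature B cell were checked with lists of genes that they use. None of the 10 pre-B cell genes passed, 4 had a positive difference, and the median was -0.01. Sox4 (9.20 to 9.64) and Cd93 (7.58 to 8.42) of this list read well above background on all arrays. Which cells gave these readings was not tested, so the median is not a measure of pre-B cells alone. Igll1, the surrogate light chain, read 4.35 to 4.73 over the 6 arrays. Rag1, of the recombinase, read 2.86 to 3.12 in Prox1-OE and 2.74 to 2.82 in control, at percentile 4.09 of all probe sets by level. It was the 1 gene of the 10 that was higher with no overlap (5.05% of all genes). Vpreb1 and Vpreb3, of the surrogate receptor, differed by -0.12 ± 0.11 and -0.10 ± 0.09, and Lef1, a lymphoid transcription factor, by 0.15 ± 0.16. Of 10 measured plasma cell genes (of 12 listed) none passed and 8 were positive (median 0.15). Jchain, which links secreted IgM and IgA, read 6.24, 3.67 and 4.17 on Prox1-OE replicates 1, 2 and 3 and 3.69 to 3.86 on the controls, a log2 difference of 0.93 ± 0.54. Mzb1, a chaperone of immunoglobulin assembly, differed by 0.36 ± 0.22, Sdc1, the plasma cell antigen CD138 that epithelia also carry, by 0.17 ± 0.13 and Tnfrsf17 by 0.14 ± 0.10. Several genes of this list, such as Xbp1 (12.4 to 12.6), are also highly expressed by acinar cells.

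**Figure D3:**
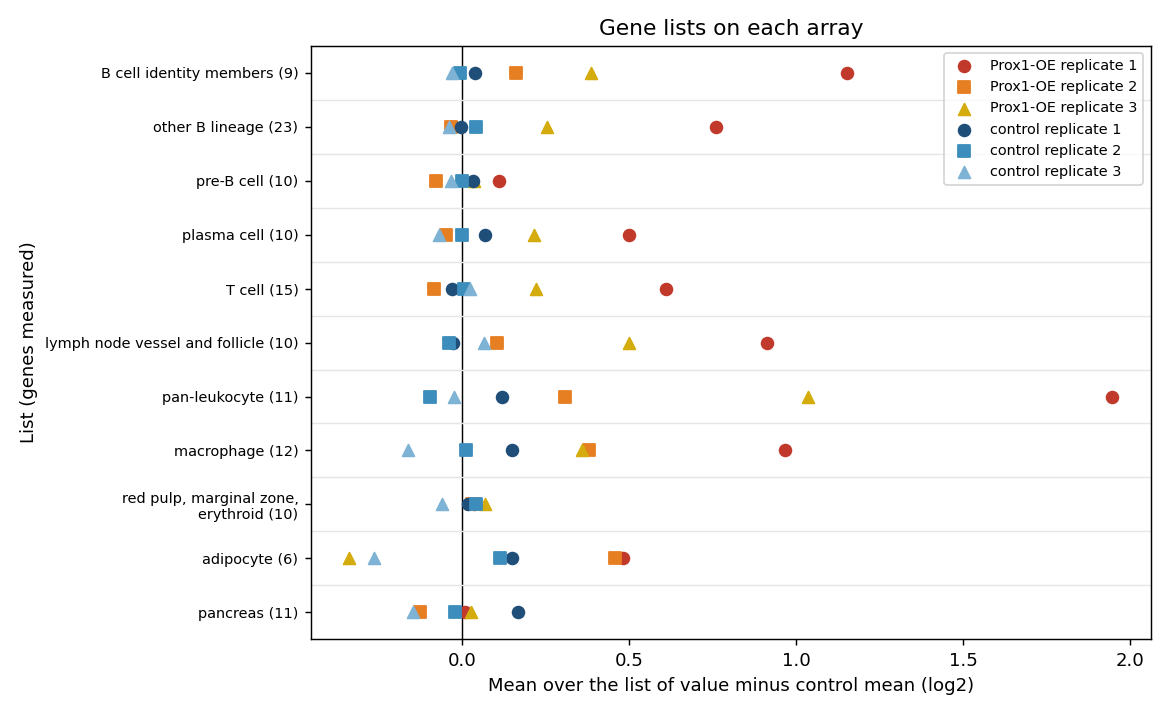
Mean over each gene list of the value less its control mean (x axis, log2) on each of the 6 arrays, for the B cell identity genes and the 10 other lists (y axis, with the number of genes measured). The B cell identity genes lie at 1.15, 0.16 and 0.39 on the Prox1-OE arrays and the pan-leukocyte genes at 1.95, 0.31 and 1.03. The list of red pulp, marginal zone and erythroid genes lies between -0.06 and 0.07 on all arrays, a mean over genes that moved in opposite directions. On Prox1-OE replicate 1 its genes ran from -1.45 (Alas2) to 2.75 (Marco).

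Genes of other leukocytes and of lymph nodes were high on the same array, and their part in the B cell readings was not tested. Of 11 measured pan-leukocyte genes 11 had a positive difference and 7 did not overlap between groups (5.05% of all genes), with a median of 0.97. Ptprc, the common leukocyte antigen CD45, read 8.92, 5.55 and 7.56 in Prox1-OE and 5.19 to 5.38 in control. That is the order of arrays that Ms4a1 showed. Cd52, a glycoprotein of lymphocytes, differed by 2.33 ± 0.64, Cd53 by 1.45 ± 0.42, Laptm5 by 1.14 ± 0.33 and Rac2 by 0.83 ± 0.24 (limma adjusted p = 0.777 for each).

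The T cell list gave 11 of 15 positive differences and a median of 0.23, with a mean over control of 0.61, -0.09 and 0.22 on Prox1-OE replicates 1, 2 and 3. Cd3d, a chain of the T cell receptor complex, read 5.62 on Prox1-OE replicate 1 and 3.64 to 4.10 on the others, while Cd3e, of the same complex, read 4.21 to 4.82 on all arrays and differed by -0.27 ± 0.14. Lat, an adaptor of T cell receptor signalling, differed alike on each array (4.81 to 4.88 in Prox1-OE and 4.19 to 4.29 in control, log2 difference 0.61 ± 0.09, limma adjusted p = 0.369). Ccr7, a homing receptor, and Cd27 differed by 0.35 ± 0.17 and 0.40 ± 0.14.

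Of 10 measured lymph node vessel and follicle genes (of 14 listed) 8 had a positive difference, with a median of 0.18. Glycam1, a mucin made by the high endothelial venules of lymph nodes, read 8.49, 3.26 and 6.83 on Prox1-OE replicates 1, 2 and 3 and 3.30 to 3.72 in control. It was thus high on the same arrays as Ms4a1 and at control level on Prox1-OE replicate 2 (log2 difference 2.69 ± 1.05, limma adjusted p = 0.801). Cxcl13, the chemokine that draws B cells into follicles, read 6.50, 7.59 and 5.54 in Prox1-OE and 5.46 to 5.77 in control. Its highest array was Prox1-OE replicate 2, where Ms4a1 and Glycam1 were lowest of the 3 (log2 difference 0.98 ± 0.42). Ltb, lymphotoxin beta, differed by 0.92 ± 0.41, and Ccl20 was lower in all Prox1-OE arrays (-0.26 ± 0.09).

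Spleen, which lies at the tail of the pancreas, was checked with red pulp, marginal zone and erythroid genes. Of 10 measured 3 had a positive difference (median -0.03). Spic, of red pulp macrophages, read 4.03, 3.47 and 3.73 on Prox1-OE replicates 1, 2 and 3 and 3.34 to 3.63 in control. It was thus highest on Prox1-OE replicate 1, at a level under the median of all probe sets. Alas2, of red cell precursors, read 4.93 on Prox1-OE replicate 1, the lowest of the 6. Marco, a receptor of marginal zone and of lymph node macrophages, read 7.02, 4.76 and 6.14 in Prox1-OE and 3.83 to 4.64 in control (log2 difference 1.70 ± 0.48). The erythroid genes Hemgn and Hba-a1 were lower in all Prox1-OE arrays, by -0.64 ± 0.10 and -0.28 ± 0.12 (limma adjusted p = 0.588 and 0.801).

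Macrophage genes had 10 of 12 positive differences (median 0.57), and averaged 0.97, 0.38 and 0.36 above the control mean on Prox1-OE replicates 1, 2 and 3. C1qc (0.59 ± 0.13), Ctss (1.50 ± 0.35), Fcgr3 (0.56 ± 0.13) and Cd68 (0.62 ± 0.15) were higher in all Prox1-OE arrays, none past the threshold (limma adjusted p = 0.772 for each). Averaged over this list Prox1-OE replicates 2 and 3 were alike, whereas Ms4a1 set them apart. Adipocyte genes followed another order, with a mean of 0.48 and 0.46 on Prox1-OE replicates 1 and 2 and -0.34 on replicate 3. Adipoq, the hormone adiponectin of fat, read 5.62, 5.87 and 3.57 in Prox1-OE and 3.36 to 4.55 in control. Of 118 listed genes measured outside the 9, none passed the threshold.

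**Figure D4:**
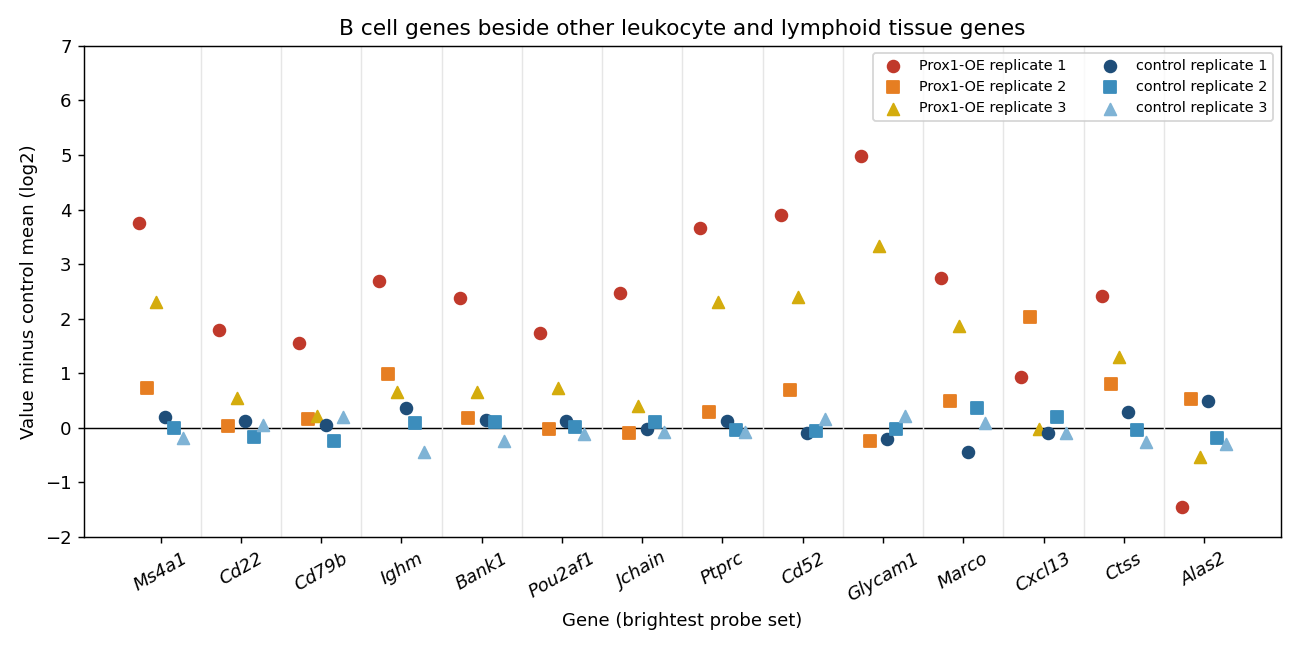
Value less the control mean (y axis, log2) on each of the 6 arrays for 4 B cell identity genes and 10 genes of other lists (x axis), red to yellow for Prox1-OE and blue for control. The 4 are the members that moved by more than 1 log2 unit between arrays. Cd79a, Cr2, Fcer2a, Blk and Pax5 are not shown, and lay between -0.23 and 0.26 on Prox1-OE replicate 1. Ms4a1, Ptprc, Cd52, Glycam1 and Marco are high on Prox1-OE replicates 1 and 3, Cxcl13 is highest on replicate 2, and Alas2 is lowest on replicate 1.

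The 10 genes whose profile was nearest to the mean of the 9 were found by the root mean square difference over the 6 arrays, among 627 genes that spanned at least 1 log2 unit. The nearest was Adgre1, the macrophage antigen F4/80, with a root mean square difference of 0.06 log2 units. After it came Rasa3, Csf1r, Id4, Msn, Lcp1, H2-Ob, Fcmr, Stk17b and Irf8, with 0.08 to 0.11. Among the 10, H2-Ob and Fcmr, an IgM receptor, are also on the list of B lineage genes. Adgre1 and Csf1r, the receptor of a macrophage growth factor, are on the macrophage list. Rasa3, Id4, Msn, Lcp1, Stk17b and Irf8 are on none of the lists, so the neighbours do not point to a cell type. The mean of the 9 also averages genes that moved by more than 1 log2 unit between arrays with genes that did not. The distance matches size as well as shape, so a gene that rose much more than this mean could not be among them.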

How the data were processed

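Whole pancreas RNA (100 ng, per the labels' protocols) was measured on Affymetrix 3' arrays, 1 per sample. The deposited values were log2 probe set summaries, and the submitters' processing notes name RMA and Partek 6.5. RMA's quantile step hides changes of total RNA, and its summaries compress dim probe sets. Of 45101 probe sets, 64 Affymetrix controls were left out, and 34945 of the others had 1 gene symbol. The groups were compared in R 4.3.3 with limma 3.58.1 (lmFit, eBayes), two-sided, with no covariate or filter and Benjamini-Hochberg adjustment over 45037 probe sets. The fit assumes the same spread in both groups. It was tested on simulated data with equal spread, so that test does not cover unequal spread. Ms4a1, for example, had an SD of 1.51 in Prox1-OE and 0.19 in control. Members, lists and tests were chosen with earlier results of these data known. Every member, up to 4 genes of each list by smallest p, fixed defining genes and the 10 nearest profiles are named; Cpa1, Xbp1, Cd3d and Pou2af1 were named after their values were seen. The number of arrays limits the precision.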

Additional observations from a re-analysis of the deposited data

How the results depend on the processing

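The count of member probe sets past the threshold was 0 in each setting tried: 1 value per gene, dim probe sets left out (6 of the 23 remained), quantile normalization again, median centring, array weights, eBayes with trend and robust, the replicate block, probe sets with the plain suffix alone (14 of the 23), and without each array in turn. At an unadjusted p under 0.05, limma gave 2 to 6 member probe sets in these fits. The count over all probe sets was 5 in the fit reported, 6 with trend and robust and with plain-suffix probe sets, 2 with the replicate block, 0 to 8 without any 1 array, and 5 in the other settings, and 0 genes of the other lists passed in any of them. Without any 1 array, the log2 difference ranged from 0.82 to 1.84 for Ighm, 1.52 to 3.02 for Ms4a1, 0.28 to 1.17 for Cd22, 0.19 to 0.88 for Cd79b, -0.17 to 0.053 for Cd79a, -0.049 to 0.13 for Cr2, 0.04 to 0.19 for Fcer2a, -0.12 to 0.057 for Blk and -0.23 to 0.035 for Pax5. Ms4a1, Ighm, Cd22 and Cd79b had their lowest value without Prox1-OE replicate 1. Blk turned to 0.014 with quantile normalization again and to 0.0055 with median centring. With plain-suffix probe sets, Ighm was read from 1427869_at and gave -0.011, since the probe sets that were high carry the a and s suffixes, and Cr2 had no value. With the mean of all probe sets of a gene, the mean of the 9 members on Prox1-OE replicates 1, 2 and 3 was 0.74, 0.03 and 0.16. Scaling moved the median difference of all probe sets from -0.02 to at most 0.003. Arrays with the same replicate number had deviations that correlated at 0.06, 0.17 and 0.10, and each array correlated best with its own number. Not every pair was over 0.1, an arbitrary cut, and the labels name no pairing, so the numbers were not taken as pairs. With the replicate block, Ighm differed by 1.44 ± 0.26 (SE, limma adjusted p = 0.489) and Ms4a1 by 2.26 ± 0.45 (limma adjusted p = 0.531). The SE of Cd79a, Fcer2a and Blk was larger with the block than without it.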

Other observations

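The likeness of profiles was also taken for single members, a choice made after their values were seen. Nearest to Ms4a1 over the 6 arrays were Ptprc (root mean square difference 0.19 log2 units), Cd52 (0.21), H2-Aa (0.27), Coro1a (0.34) and Btla (0.38). H2-Aa, a chain of MHC class II, read 10.45, 7.11 and 8.81 on Prox1-OE replicates 1, 2 and 3 and 5.93 to 7.11 in control, and Btla, an inhibitory receptor of lymphocytes, read 7.19, 3.58 and 5.65 against 3.45 to 3.83.

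Nearest to Ighm were H2-Eb1 (0.22), Igkv8-30 (0.28), Ppy (0.30), Ctss (0.31) and H2-Ab1 (0.32). Igkv8-30, a variable segment of the kappa light chain, read 5.30, 3.47 and 3.56 in Prox1-OE and 2.75 to 3.07 in control. It was thus highest on Prox1-OE replicate 1 like Ighm, while the order of the other arrays differed from that of Ighm in both groups. Ppy is a hormone of islet PP cells and read 9.99, 8.64 and 8.24 in Prox1-OE and 7.52 to 7.75 in control. Nearest to Cd79b were Nfkbie (0.10), Nrros (0.12), P2ry10 (0.14), Shisa3 (0.14) and Evi2a (0.16). The nearest 5 of Ms4a1, Ighm and Cd79b held no gene in common. This does not show that their profiles differ in shape, since the distance was not scaled for size. Over the 6 arrays Ms4a1 spanned 3.94 log2 units, Ighm 3.13 and Cd79b 1.80.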
